A study of Homo sapiens with 4 samples.

Results

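The transcripts described here are those of 10 genes of the circadian clock, namely the activators CLOCK, NPAS2 and BMAL1, the period genes PER1, PER2 and PER3, the cryptochromes CRY1 and CRY2, and the repressors BHLHE40 and BHLHE41. They were taken by symbol from a count table of 20263 genes, where all 10 were present (BMAL1 under its identifier ENSG00000133794, formerly named ARNTL) and all 10 had enough counts to be tested. The cells were HCT116, an established human colon cancer line, given the compound N_12 for 24 h or given its solvent DMSO, with 2 mRNA libraries in each group. The series title calls N_12 a derivative of the kinase inhibitor nilotinib. For the N_12 samples the tag for treatment reads HJJ_3_5 instead, and the labels give no dose. They also give no time of day and no synchronisation step, and with 1 time point no phase or rhythm can be read from these values. The 10 genes were listed with results of this same comparison in view, so their values below are a description, and calls and adjusted p-values only say where each gene stood in a fit over all genes.

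The clock works as a loop of transcription and repression. BMAL1 pairs with CLOCK or with its close relative NPAS2, and the pair binds E-box sequences to switch on PER, CRY, BHLHE40, BHLHE41 and the nuclear receptor genes NR1D1 and NR1D2. PER and CRY proteins return to the nucleus and inhibit the pair, BHLHE40 and BHLHE41 compete for E-boxes, and NR1D proteins repress BMAL1 through elements shared with the ROR receptors. Outside the loop, PER1 is also induced by cAMP and growth signals, and BHLHE40 is also induced by low oxygen through HIF.

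In N_12 cells 1 of the 10 transcripts was called higher and 3 were called lower, against 2.25% of all 14105 tested genes called in either direction (0.822% higher and 1.43% lower). NPAS2 rose 1.99-fold, CRY2 fell 3.03-fold, PER1 fell 2.06-fold and BHLHE40 fell 1.76-fold. The other 6 genes were not called. Their log2 fold changes of N_12 over DMSO ran from -0.62 for CRY1 to 0.48 for PER3. Because the list was drawn up from this contrast, the share of calls is not read against the background. CPM, a gene's count scaled to the library total after TMM scaling, is the unit of single-gene values here, and a call means an adjusted p under 0.05 in edgeR's quasi-likelihood test over all tested genes.

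The promoters are shown first because the members are classically grouped by the clock element they carry. RefSeq windows on GRCh38.p14, running from 250 bases before to 50 bases after an annotated start, were found for all 10 genes (14 windows). Each was searched on both strands for the E-box (CACGTG), its E′-box variant (CACGTT), the D-box (TTATGTAA, TTATGCAA or TTACGTAA, read by DBP, TEF, HLF and NFIL3), the ROR element (AAAGTAGGT) and the cAMP response element (TGACGTCA). No 2 of these motifs share letters in the matches found. Capitals mark the match in each stretch, which is written 5′ to 3′ on the strand of the gene. Of the 4 called genes, PER1, CRY2 and BHLHE40 hold a match and their stretches are these.
PER1, chr17:8152405-8152604, minus strand: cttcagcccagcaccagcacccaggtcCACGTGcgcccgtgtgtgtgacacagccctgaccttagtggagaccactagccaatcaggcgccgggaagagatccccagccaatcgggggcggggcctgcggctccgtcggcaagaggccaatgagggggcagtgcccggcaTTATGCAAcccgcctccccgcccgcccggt
CRY2, chr11:45847260-45847319, plus strand: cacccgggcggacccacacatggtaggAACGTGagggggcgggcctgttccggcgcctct
BHLHE40, chr3:4979187-4979224, plus strand: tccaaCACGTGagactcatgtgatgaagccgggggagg
The capitals are an E-box 173 bases and a D-box 30 bases before the PER1 start, an E′-box read from the other strand 188 bases before the CRY2 start, and an E-box 245 bases before the BHLHE40 start. The single NPAS2 window held none of the 5 motifs.

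Genes that were not called carry the same elements, which is why their stretches are set beside the first set.
PER2, chr2:238288775-238288834, minus strand: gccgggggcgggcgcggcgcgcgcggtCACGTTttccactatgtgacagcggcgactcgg
PER3, chr1:7784087-7784148, plus strand: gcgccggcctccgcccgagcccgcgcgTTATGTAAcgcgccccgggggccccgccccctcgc
CRY1, chr12:107093606-107093665, minus strand: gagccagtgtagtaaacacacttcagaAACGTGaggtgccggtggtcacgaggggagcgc
BHLHE41, chr12:26125053-26125112, minus strand: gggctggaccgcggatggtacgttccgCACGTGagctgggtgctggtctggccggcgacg
CLOCK, chr4:55546087-55546146, minus strand: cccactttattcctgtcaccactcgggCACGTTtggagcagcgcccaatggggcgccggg
BMAL1, chr11:13277753-13277789, plus strand: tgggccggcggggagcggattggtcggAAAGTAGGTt
Here the capitals are E′-boxes in PER2, CRY1 and CLOCK, an E-box in BHLHE41, a D-box in PER3 and the first of 2 ROR elements in BMAL1, the other lying 26 bases past the start. PER2 also holds a D-box across its start. In all, an E-box stood in 3 of the 14 member windows against 7.26% of all 35116 windows of the same length, an E′-box in 4 against 5.34%, a D-box in 3 against 1.84%, a ROR element in 1 against 0.157% and a cAMP response element in 0 against 1.85%. Since the members are classically grouped by these elements, the shares describe the list and are not read as enrichment. The 14 member windows came from 10 genes. The E-box was present in PER1 and BHLHE40, called lower, and in BHLHE41, not called. The E′-box was likewise present in CRY2, called lower, and in CRY1, PER2 and CLOCK, not called. Among these uncalled carriers the log2 fold change was -0.62 for CRY1 and -0.57 for PER2, both called lower by DESeq2. It was 0.12 for CLOCK and 0.20 for BHLHE41. Whether an element goes with the direction of a transcript was not tested. A match is a string of letters and was not tested as a binding site. The search took exact strings in these windows alone, so no match does not show that a gene lacks the element.

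Among the activators, only NPAS2 was called. NPAS2 (ENSG00000170485), the alternative partner of BMAL1, had 5688 and 5323 counts in the N_12 libraries and 2103 and 1892 in the DMSO libraries. In CPM this was 135 and 131 in N_12 and 69.0 and 64.4 in DMSO. Both N_12 libraries lay above both DMSO libraries, and the spread within each group was small beside the gap, with means of 133 ± 3.15 CPM in N_12 and 66.7 ± 3.26 CPM in DMSO (SD, n = 2 each). The log2 fold change was 0.99 (SE 0.13, 95% interval 0.69 to 1.30).

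CLOCK (ENSG00000134852), the usual partner of BMAL1, stood at 73.8 and 60.3 CPM in N_12 and at 54.8 and 68.3 CPM in DMSO. The groups overlapped, and the log2 fold change of 0.12 had an interval from -0.28 to 0.53. It was -0.03 without DMSO replicate 1 and -0.05 without N_12 replicate 1, so its direction depended on 1 library. BMAL1, the partner common to both dimers, had 1460 and 1325 counts in N_12 and 884 and 883 in DMSO, which gave means of 33.6 ± 1.52 CPM in N_12 and 29.5 ± 0.737 CPM in DMSO (SD, n = 2 each). The groups did not overlap, but the gap was narrow and the gene was not called (0.19, interval -0.16 to 0.54). Neither gene was thereby shown to be unchanged.

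Of the period genes, which encode the inhibitors that pair with CRY, PER1 was called lower. PER1 (ENSG00000179094) had 8154 and 8905 counts in N_12 and 14602 and 10934 in DMSO, that is 194 and 218 CPM in N_12 and 479 and 372 CPM in DMSO. The groups did not overlap, and DMSO replicate 1 was the highest of the 4 libraries. The means were 206 ± 17.6 CPM in N_12 and 425 ± 75.6 CPM in DMSO (SD, n = 2 each), a log2 fold change of -1.05 (SE 0.16, interval -1.42 to -0.68). Without DMSO replicate 1 it was -0.85, and PER1 was still called.

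PER2 (ENSG00000132326), a core inhibitor of the loop, stood at 24.0 and 23.7 CPM in N_12 and at 36.5 and 34.1 CPM in DMSO. Both N_12 libraries were lower and close to each other, yet the gene was not called by edgeR (log2 fold change -0.57, SE 0.15, interval -0.92 to -0.22). PER3 (ENSG00000049246), the least abundant member, had 434 and 399 counts in N_12 and 180 and 250 in DMSO, or 10.3 and 9.79 CPM in N_12 and 5.90 and 8.50 CPM in DMSO. Its N_12 libraries were the higher ones, which sets its direction apart from that of PER1 and PER2, and its log2 fold change was 0.48 (SE 0.22, interval -0.04 to 1.0, not called). Of the exon bases of PER3, 16.7% are shared with genes on the other strand. For NPAS2 this share was 6.3%, for BHLHE41 4.1% and for PER2 2.7%, and it was smaller for the other members. No source used here gives the strand setting of the counts.

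The cryptochromes encode the main inhibitors of the activator pair. CRY2 (ENSG00000121671) had 713 and 851 counts in N_12 and 1954 and 1489 in DMSO, that is 16.9 and 20.9 CPM in N_12 and 64.1 and 50.6 CPM in DMSO. The gap between the groups was wide, with means of 18.9 ± 2.79 CPM in N_12 and 57.4 ± 9.50 CPM in DMSO (SD, n = 2 each). At -1.60 (SE 0.19, interval -2.05 to -1.16) the log2 fold change was the one farthest from 0 among the 10 genes, and by p-value CRY2 ranked 50 of 14105. No exon base of CRY2 is shared with another gene of GENCODE release 29.

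CRY1 (ENSG00000008405), its paralog, stood at 39.6 and 31.2 CPM in N_12 and at 57.8 and 51.4 CPM in DMSO. Both N_12 libraries were lower here too, but CRY1 was not called by edgeR (log2 fold change -0.62, SE 0.18, interval -1.03 to -0.22). The intervals of the 2 cryptochromes did not overlap under this main setting, but the difference between the genes was not tested. Without DMSO replicate 1 the log2 fold changes were -0.53 for CRY1 and -1.42 for CRY2. Without N_12 replicate 1 they were -0.82 for CRY1 and -1.47 for CRY2.

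BHLHE40 (ENSG00000134107), an E-box repressor and the most abundant member, had 11694 and 11395 counts in N_12 and 16087 and 13360 in DMSO, or 278 and 280 CPM in N_12 and 528 and 454 CPM in DMSO. The N_12 libraries were almost equal and both lower than either DMSO library. The means were 279 ± 1.36 CPM in N_12 and 491 ± 51.7 CPM in DMSO (SD, n = 2 each), a log2 fold change of -0.82 (SE 0.13, interval -1.13 to -0.51). Without DMSO replicate 1 the value was -0.70 and BHLHE40 was not called. BHLHE41 (ENSG00000123095), the paralog with the same DNA-binding fold, stood at 17.0 and 14.6 CPM in N_12 and at 13.1 and 14.3 CPM in DMSO. Its groups were nearly touching, and its log2 fold change was 0.20 (SE 0.18, interval -0.20 to 0.61, not called).

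**Figure D1:**
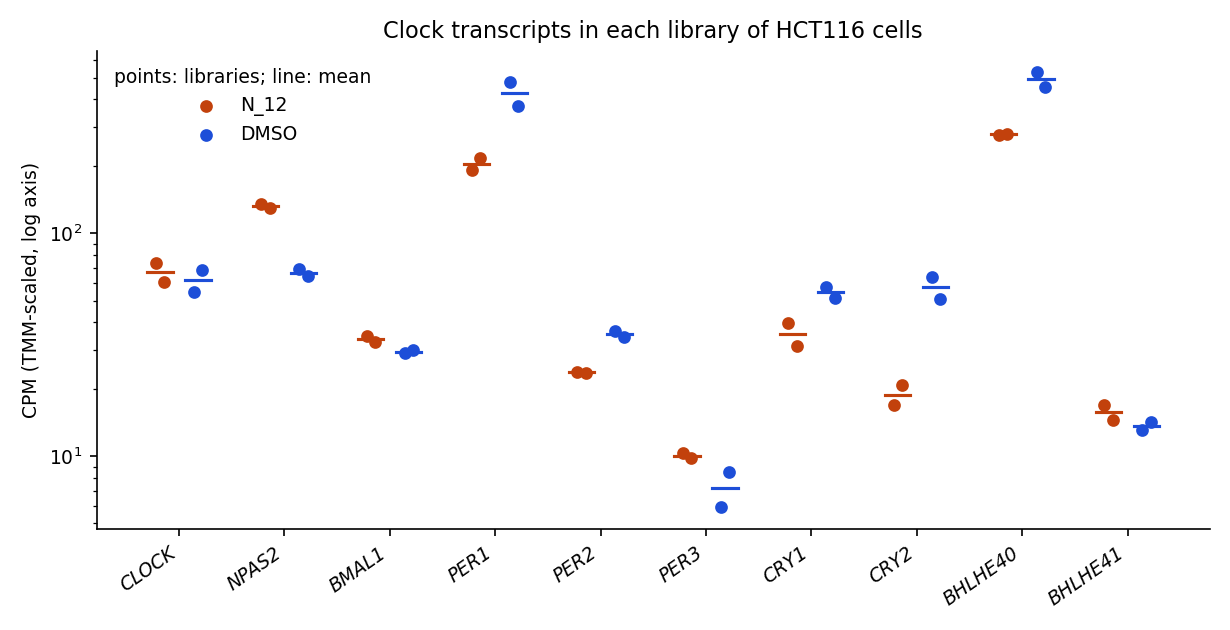
CPM on a log axis for the 10 clock transcripts, with a point for each library and a line at the mean of each group (N_12 and DMSO, 2 libraries each). NPAS2 is higher in both N_12 libraries, PER1, CRY2 and BHLHE40 are lower in both, and the CLOCK groups overlap.

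In the fit over all genes the adjusted p-values of edgeR's quasi-likelihood test were 0.0102 for CRY2, 0.0162 for NPAS2, 0.0232 for PER1 and 0.0269 for BHLHE40. They were 0.0932 for PER2 and 0.104 for CRY1, and 0.263 or above for the other 4. In 9 of the 10 genes the groups did not overlap, against 54.7% of all tested genes, and 6 had an unadjusted p under 0.05, against 21.8%. The median log2 fold change was -0.22 over the 10 genes, 5 of them above 0 and 5 below, beside 0.01 over all tested genes. DESeq2 called 6 of the 10 (8.68% of all genes), adding CRY1 and PER2 as lower, while limma-voom called CRY2 and NPAS2 alone (0.929% of all genes). When either N_12 library was left out, edgeR called no gene of the whole table, the members included, although 2855 genes without N_12 replicate 1 and 2763 without N_12 replicate 2 had an unadjusted p under 0.05, with 6 members in each case.

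Levels can be compared between genes only per length, and for this they were given in TPM, a level from counts divided by exon length and scaled to the same sum in every library. In N_12 cells the order was BHLHE40 (239 ± 8.36 TPM), PER1 (96.8 ± 11.2), NPAS2 (34.9 ± 0.225), CRY1 (22.9 ± 3.17), CLOCK (18.7 ± 2.10), BMAL1 (16.4 ± 0.250), BHLHE41 (13.1 ± 1.0), PER2 (11.4 ± 0.240), CRY2 (10.0 ± 1.78) and PER3 (4.07 ± 0.0249; SD, n = 2 each). In DMSO cells it was BHLHE40 (410 ± 44.2 TPM), PER1 (195 ± 35.1), CRY1 (34.6 ± 2.96), CRY2 (29.7 ± 4.98), NPAS2 (17.1 ± 0.877), CLOCK (16.8 ± 2.57), PER2 (16.5 ± 0.813), BMAL1 (14.1 ± 0.319), BHLHE41 (11.1 ± 0.664) and PER3 (2.85 ± 0.721; SD, n = 2 each). BHLHE40 and PER1 headed both orders and PER3 closed both. NPAS2 stood at rank 3 in N_12 and rank 5 in DMSO, and CRY2 at rank 9 in N_12 and rank 4 in DMSO. Neighbours whose libraries overlapped were PER2 and CRY2 in N_12, and CRY1 and CRY2, NPAS2 and CLOCK, and CLOCK and PER2 in DMSO.

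Ratios taken within a library do not depend on how libraries are scaled. NPAS2 was 1.72 and 2.04 times CLOCK in the N_12 libraries and 1.19 and 0.887 times CLOCK in the DMSO libraries. NPAS2 thus made up 63.3% and 67.1% of the summed CLOCK and NPAS2 level in N_12, against 54.2% and 47.0% in DMSO. CRY1 was 2.87 and 1.83 times CRY2 in N_12 and 1.10 and 1.24 times CRY2 in DMSO, so CRY1 outweighed CRY2 more in both N_12 libraries. The BHLHE40 level was 16.8 and 19.7 times that of BHLHE41 in N_12 and 41.4 and 32.7 times in DMSO. None of these ratios overlapped between the groups. Each holds a member called above, so this restates those calls and adds nothing to them. For single genes, 54.7% of all those tested did not overlap either. With 2 libraries a group no exact permutation test of a single ratio can reach the threshold, and none was made.

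Summed by role, the activators CLOCK, NPAS2 and BMAL1 reached 71.5 and 68.5 TPM in N_12 and 46.5 and 49.4 TPM in DMSO. The period genes reached 104 and 120 TPM in N_12 and 239 and 189 TPM in DMSO, and the cryptochromes 34.0 and 32.0 TPM in N_12 and 69.9 and 58.6 TPM in DMSO. PER1 supplied 85.3% and 87.0% of the period sum in N_12 and 91.9% and 89.8% in DMSO, so that sum mostly repeats PER1. The level of PER and CRY transcripts together was 1.93 and 2.22 times that of the activators in N_12 and 6.64 and 5.02 times in DMSO. PER1 was the largest part of the upper sum, with means of 96.8 TPM in N_12 and 195 TPM in DMSO. NPAS2, the only activator called, had means of 34.9 and 17.1 TPM. The ratio thus largely repeats genes called above, and PER3 went the other way from PER1. Transcript levels say nothing of the amounts of the proteins, which were not measured.

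**Figure D2:**
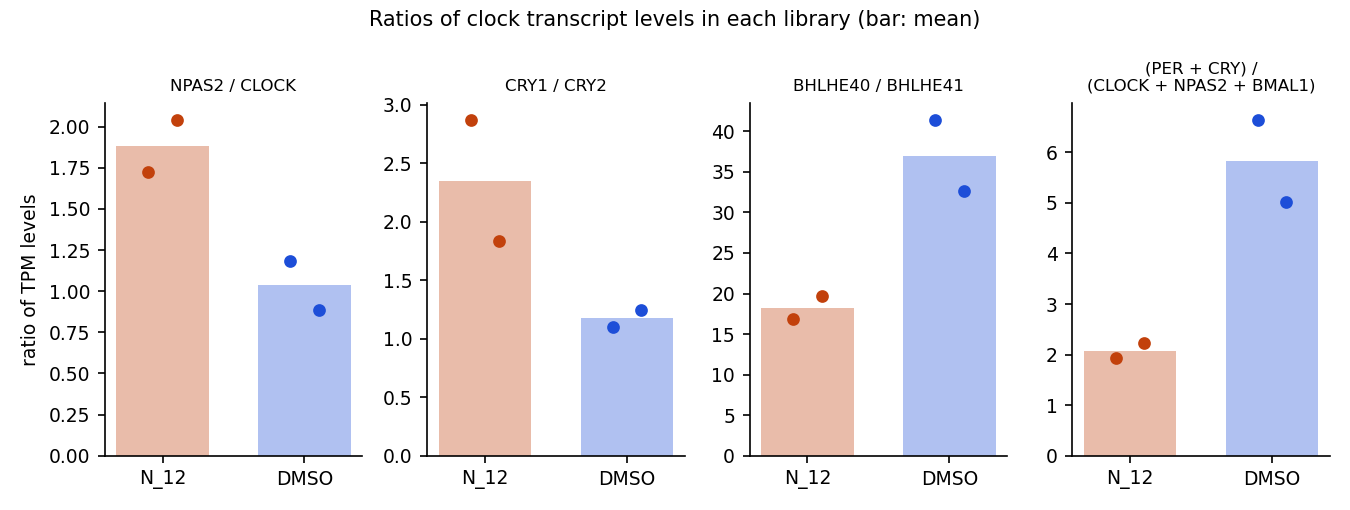
Ratios of TPM levels within each library, with a point per library and a bar at the mean, for N_12 and DMSO (2 libraries each). NPAS2 over CLOCK and CRY1 over CRY2 are higher in both N_12 libraries, and BHLHE40 over BHLHE41 and the PER and CRY sum over the activator sum are lower in both.

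Beyond the 10 genes, 51 other genes of the clock pathway were grouped by role, and 47 of them passed the expression filter. edgeR called 1 of them higher and 2 lower, 3 of 47 beside the 2.25% of all tested genes. Their median log2 fold change was 0.09, beside 0.01 over all tested genes.

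By edgeR none of the 3 tested nuclear receptors of the loop was called, with 0 at an unadjusted p under 0.05 and 0 calls by DESeq2 or limma-voom. The edgeR shares over all tested genes were 2.25% called and 21.8% at an unadjusted p under 0.05. NR1D1, a repressor of BMAL1, stood at 234 and 242 CPM in N_12 and at 212 and 183 CPM in DMSO, a log2 fold change of 0.27 (interval -0.04 to 0.58). NR1D2, its paralog, stood at 146 and 112 CPM in N_12 and at 116 and 110 CPM in DMSO (0.19, interval -0.18 to 0.56). Both are E-box targets of the loop. The NR1D1 groups did not overlap, while the NR1D2 groups did, and without N_12 replicate 1 the NR1D2 value was -0.03, so its direction rested on that library. RORA had 12 and 4 counts in N_12 and 2 and 4 in DMSO, too few for a test, and RORB had 0 counts in every library.

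Of 10 clock-controlled factors and outputs, 2 were called lower and 0 higher by edgeR, beside 1.43% and 0.822% of all tested genes. In the same test 4 of the 10 had an unadjusted p under 0.05, beside 21.8% of all tested genes. NFIL3, the repressor that binds D-boxes, stood at 61.5 and 59.2 CPM in N_12 and at 110 and 97.8 CPM in DMSO (log2 fold change -0.78, SE 0.14, adjusted p = 0.0366 by edgeR's quasi-likelihood test). KLF10, a zinc finger factor first known as an early TGF-beta response gene, stood at 74.4 and 105 CPM in N_12 and at 166 and 174 CPM in DMSO (-0.92, SE 0.18, adjusted p = 0.0485 by the same test). The N_12 libraries were the lower ones for both genes. Neither was called without DMSO replicate 1, without either N_12 library, by limma-voom or with non-robust dispersions. KLF10 was also not called without DMSO replicate 2. The same held when libraries were scaled by their totals (adjusted p = 0.0575 for KLF10 in edgeR's test) or upper quartiles (0.0528). Of the 13 alternatives NFIL3 was called in 8 and KLF10 in 5. The 8 others, the D-box activators DBP, TEF and HLF among them, were not called.

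No kinase, phosphatase or ubiquitin pathway gene acting on PER and CRY was called by edgeR (0 of 14 tested, 4 with an unadjusted p under 0.05) or by DESeq2 or limma-voom (0 each). Over all tested genes edgeR called 2.25%, and 21.8% had an unadjusted p under 0.05. Nearest to the threshold was USP7, a deubiquitinase that acts on CRY1, at 181 and 170 CPM in N_12 and 127 and 137 CPM in DMSO (log2 fold change 0.41, interval 0.11 to 0.72). PRKAA2, the AMP kinase subunit, followed at 21.5 and 14.8 CPM in N_12 and 25.6 and 29.6 CPM in DMSO (-0.60, interval -1.09 to -0.11).

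Among 12 chromatin and RNA cofactors edgeR called 1, DESeq2 called 4 (SFPQ, TIMELESS and CREBBP higher and HDAC3 lower) and limma-voom called 0, with 6 at an unadjusted p under 0.05. Over all tested genes the shares were 2.25% by edgeR, 8.68% by DESeq2, 0.929% by limma-voom and 21.8% at an unadjusted p under 0.05. SFPQ, an RNA-binding protein found in PER complexes of mouse cells, rose to 219 and 190 CPM in N_12, against 105 and 115 CPM in DMSO (log2 fold change 0.90, SE 0.14, adjusted p = 0.0248 by edgeR's quasi-likelihood test). SFPQ was not called without DMSO replicate 1, without either N_12 library, by limma-voom or with non-robust dispersions. It was called in 8 of the 13 alternatives. TIMELESS, which in mammals serves replication forks as well as the clock, stood at 85.7 and 88.0 CPM in N_12 and at 58.7 and 55.4 CPM in DMSO (0.61, interval 0.29 to 0.92, not called). Of this list 9 of 12 genes lay above 0, with a median log2 fold change of 0.29, beside 7190 of 14105 genes and a median of 0.01 over all tested genes.

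Relatives of CLOCK and BMAL1 with the same bHLH-PAS architecture were not called by edgeR (0 of 8 tested, 1 with an unadjusted p under 0.05) or limma-voom (0), and DESeq2 called HIF1A as higher. Over all tested genes 21.8% had an unadjusted p under 0.05 by edgeR, and DESeq2 called 8.68%. HIF1A, the oxygen-regulated subunit, stood at 284 and 234 CPM in N_12 and at 116 and 180 CPM in DMSO (log2 fold change 0.81, interval 0.26 to 1.36). The DMSO libraries differed from each other for this gene, and without DMSO replicate 2 it was called higher (1.16). EPAS1, the related subunit, stood at 147 and 142 CPM in N_12 and at 176 and 176 CPM in DMSO (-0.28, interval -0.57 to 0.01).

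**Figure D3:**
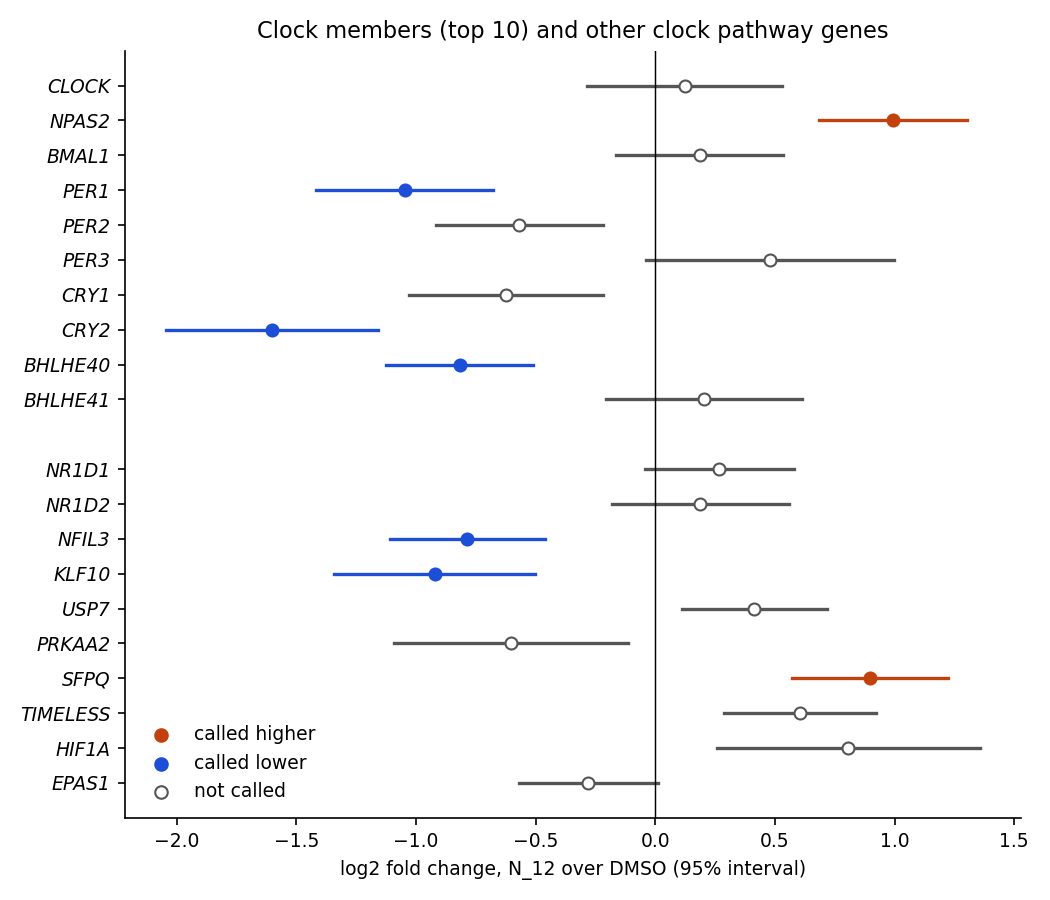
Log2 fold change of N_12 over DMSO with its 95% interval for the 10 clock members and, below them, 10 other clock pathway genes. Filled points are genes called in the fit over all genes. NPAS2 and SFPQ are called higher, and PER1, CRY2, BHLHE40, NFIL3 and KLF10 lower.

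As a description of likeness, the genes closest to each called member were sought among 11216 others with a mean of at least 5 CPM, by the root mean square distance of centred log2 CPM over the 4 libraries. Closest to CRY2 were PGK1 (distance 0.10), NDRG1 (0.10) and TMEM45A (0.11), whose log2 fold changes were -1.53, -1.57 and -1.52. Closest to NPAS2 were NHSL1, TXNRD1 and PHLDA2, to PER1 AOC3, SYP and ZNF324, and to BHLHE40 CRKL and NARF, with distances from 0.02 to 0.04. The neighbours of CRY2 were thus farther from it than those of the other called members. A pattern over 4 libraries is a coarse one, and closeness is given only as a distance.

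Total counts were 41717938 and 39865327 in the N_12 libraries and 31120459 and 29769568 in the DMSO libraries. No label ties a replicate to a culture of its own, so p-values reflect only how far these libraries spread, which may be technical. Of 9 colon epithelial markers 7 were tested and none was called by edgeR, while DESeq2 called CDX2 alone. By edgeR 4 of these markers had an unadjusted p under 0.05, beside 21.8% of all tested genes. The 9 markers summed to 3178 and 3833 TPM in N_12 and 4566 and 3745 TPM in DMSO, while VIL1 and LGALS4 were below 1 TPM in every library. CLDN4 varied within groups, with 2975 and 15335 counts in N_12 and 13958 and 714 in DMSO. Markers of other cell types were below 1 TPM in every library for 5 of 6 fibroblast, 6 of 7 leukocyte and 5 of 5 endothelial genes, the exceptions being COL1A1 and CD68, and PTPRC, CD3E, DCN and LUM had 0 counts throughout. In bulk RNA, fewer cells with a transcript and less of it per cell cannot be told apart.

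**Figure D4:**
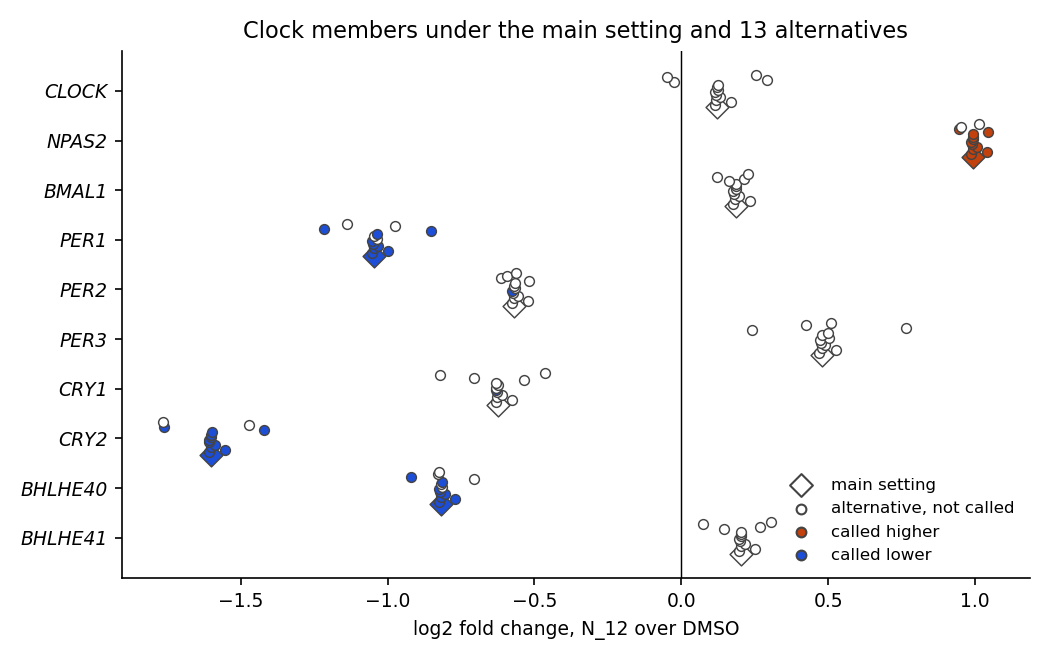
Log2 fold change of N_12 over DMSO for each clock member under the main setting (diamond) and 13 alternatives (circles), filled where the gene was called. CLOCK crosses 0 in 2 alternatives, the other 9 genes stay on 1 side, and the 4 genes called under the main setting lose the call in some alternatives, among them the removal of either N_12 library.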

How the data were processed

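mRNA of HCT116 cells was measured by RNA sequencing in 2 N_12 and 2 DMSO libraries, grouped by the sample titles. The deposited values are whole-number counts per human Ensembl gene, with no normalization by the authors. No aligner, counting tool or strand setting is named in the sources used here. Mouse builds (GRCm38, mm10) appear in the submitters' processing notes, so no coordinates are given for the counts. Symbols were assigned to 20148 of 20263 identifiers, and exon lengths came from GENCODE release 29. Counts were fitted in R 4.3.3 with edgeR 4.0.16 (TMM, its expression filter, robust quasi-likelihood test without a replicate term, Benjamini-Hochberg adjustment over 14105 genes, two-sided). The test was checked on simulated counts drawn with the dispersions of this same fit and with every library independent. Such counts cannot show whether the real libraries are independent. Standard errors come from the fold change and its F statistic, and intervals are 95% intervals. CPM and TPM were computed from the counts. Alternatives were other scalings and filters, non-robust dispersions, limma-voom (limma 3.58.1), DESeq2 1.42.0, a replicate block and leaving out each library.

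The members and lists were chosen with earlier results of these data known. Genes named beyond the members were, in each pathway list, every called gene and, where at most 1 was called, the 2 tested genes with the smallest p, plus the 3 likest genes of each called member, of which 1 is not reported here. RORA, RORB, DBP, TEF, HLF, CREBBP, HDAC3 and the markers lie outside that rule and were named to complete counts. FBXL21P was not analysed here. Each of the 4 libraries was counted as a sample. Counts of replicates differed beyond sampling noise, but this does not show that they came from separate cultures, since such spread may be technical.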

Additional observations from a re-analysis of the deposited data

How the results depend on the processing

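Over the whole table edgeR called 317 genes under the main setting, 1225 were called by DESeq2, 131 by limma-voom and 131 with non-robust dispersions. Of the 10 clock members 4 were called under the main setting, 6 by DESeq2, 2 by limma-voom and 2 with non-robust dispersions (CRY2 and NPAS2 both times). Of the 47 other pathway genes 3 were called under the main setting, 7 by DESeq2, 0 by limma-voom (15 at an unadjusted p under 0.05) and 0 with non-robust dispersions (12 at an unadjusted p under 0.05). Over all 14105 tested genes 3036 had an unadjusted p under 0.05 by limma-voom and 3012 with non-robust dispersions. Leaving out 1 library gave 0 to 451 calls over the whole table, 0 to 4 among the members and 0 to 3 among the other pathway genes. The cause was not tested. The 3 other scalings and the 2 other filters left 4 members called each time. CLOCK changed sign without DMSO replicate 1 (-0.0263) and without N_12 replicate 1 (-0.0481), with -0.0481 to 0.291 over the 4 removals, and NR1D2 changed sign without N_12 replicate 1, with -0.0274 to 0.361. The 9 other members kept their sign under all 13 alternatives, with CRY2 from -1.76 to -1.42, PER1 from -1.22 to -0.85, BHLHE40 from -0.92 to -0.70 and NPAS2 from 0.95 to 1.05.

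The labels do not say that equal replicate numbers pair samples, and deviations of same-numbered libraries correlated at -0.0895 across genes. With a replicate block 963 genes were called over the whole table, 4 members and 4 other pathway genes. HIF1A was one of these pathway genes, with a log2 fold change of 0.83 (adjusted p = 0.00131 by edgeR), so that it was called by DESeq2, with the block and without DMSO replicate 2, and in none of the 10 other alternatives.

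The lowest member count in any library was 180 (PER3). Precision is limited by the 2 libraries per group.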
